A study of Arabidopsis thaliana with 9 samples.

Results

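Glutathione transferases join the tripeptide glutathione to reactive or toxic molecules, which marks them for transport into the vacuole or for further metabolism. In plants the phi class (GSTF) and the tau class (GSTU) are the large, plant-enriched groups, and many of their genes respond to herbicides, salicylic acid, auxin or oxidative stress. Several act in the metabolism of camalexin and glucosinolates, the sulfur-containing defence compounds of the Arabidopsis family.

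The genes described here are 10 of the 32399 nuclear genes counted. They comprise 7 phi genes, GSTF2 (AT4G02520), GSTF3 (AT2G02930), GSTF6 (AT1G02930), GSTF7 (AT1G02920), GSTF8 (AT2G47730), GSTF9 (AT2G30860) and GSTF10 (AT2G30870), and 3 tau genes, GSTU5 (AT2G29450), GSTU19 (AT1G78380) and GSTU20 (AT1G78370). The list was chosen because GSTF8 was higher in both assays, so every mutant value against Col-0 below is a description and carries no test.

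The series compared nascent and steady-state RNA in Arabidopsis thaliana with mutations in RNA polymerase IV and RNA polymerase V, plant polymerases that make the non-coding RNAs of RNA-directed DNA methylation. Leaves came from plants labelled 3 weeks old, raised under long days (16 h day, 8 h night) at 22 °C. The genotypes were nrpd1-3, a mutant of the largest Pol IV subunit, nrpe1-11, a mutant of the largest Pol V subunit, and Col-0, the wild-type accession; no treatment is named. Each genotype had 1 library of nascent RNA, made by nuclear run-on with biotin-UTP and streptavidin capture (NRO), and 1 library of steady-state nuclear RNA (RNA), 6 libraries in all. The protocol given for the RNA libraries repeats the streptavidin capture, and the labels do not say how many plants went into a library.

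Counts assigned to genes were 8185846 in the NRO library labelled nrpd1-3, 7504294 in nrpe1-11 and 2687149 in Col-0. The RNA libraries were shallower, with 386011, 493080 and 709905 in the same order. All 6 leaf marker genes were detected in every library, while 3 to 5 of the 6 root markers had 0 counts and PYK10 made up nearly all of the rest. NRPD1, the gene mutated in nrpd1-3, had 94 NRO counts in the library labelled nrpd1-3, 19 in nrpe1-11 and 9 in Col-0. NRPE1 had 81, 82 and 24 NRO counts in that order. Neither gene therefore checks its label, and nrpd1-3 and nrpe1-11 below mean the libraries so labelled.

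All values below are counts or CPM, counts divided by library size after correction by trimmed means of M values (TMM). Counts and CPM are not corrected for gene length. Intervals are 95% and cover counting error only, because 1 library per group leaves the spread between plants unmeasured. A gene is called higher or lower when its log2 ratio is at least 1 in size and its exact interval excludes equality. Genes needed 20 counts in 1 library of an assay, which all 10 genes reached in NRO and 6 reached in RNA. In leaf RNA, fewer cells of a type and less RNA per cell cannot be told apart.

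GSTF8, a stress-inducible phi transferase whose promoter is a classic reporter of chemical and defence signals, had the highest count of the 10 genes in every library. In NRO it had 7560 counts in nrpd1-3, 8885 in nrpe1-11 and 555 in Col-0, or 862 (842 to 881), 957 (937 to 977) and 277 (255 to 301) CPM. In RNA it had 216, 182 and 78 counts, or 511 (445 to 584), 392 (337 to 453) and 163 (129 to 203) CPM. Both mutant libraries lay above Col-0 in both assays, with no overlap of the counting intervals.

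Log2 ratios of GSTF8 to Col-0 were 1.64 (1.51 to 1.76) in nrpd1-3 NRO and 1.79 (1.66 to 1.91) in nrpe1-11 NRO. In RNA they were 1.62 (1.27 to 2.04) in nrpd1-3 and 1.24 (0.88 to 1.67) in nrpe1-11. Among all genes measured, 5.41% had a larger NRO ratio than GSTF8 in nrpd1-3 and 5.43% in nrpe1-11. In RNA, 1.64% had a larger ratio in nrpd1-3 and 9.43% in nrpe1-11. The NRO ratio exceeded the RNA ratio by 0.01 (-0.38 to 0.40) in nrpd1-3 and by 0.54 (0.14 to 0.94) in nrpe1-11.

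**Figure D1:**
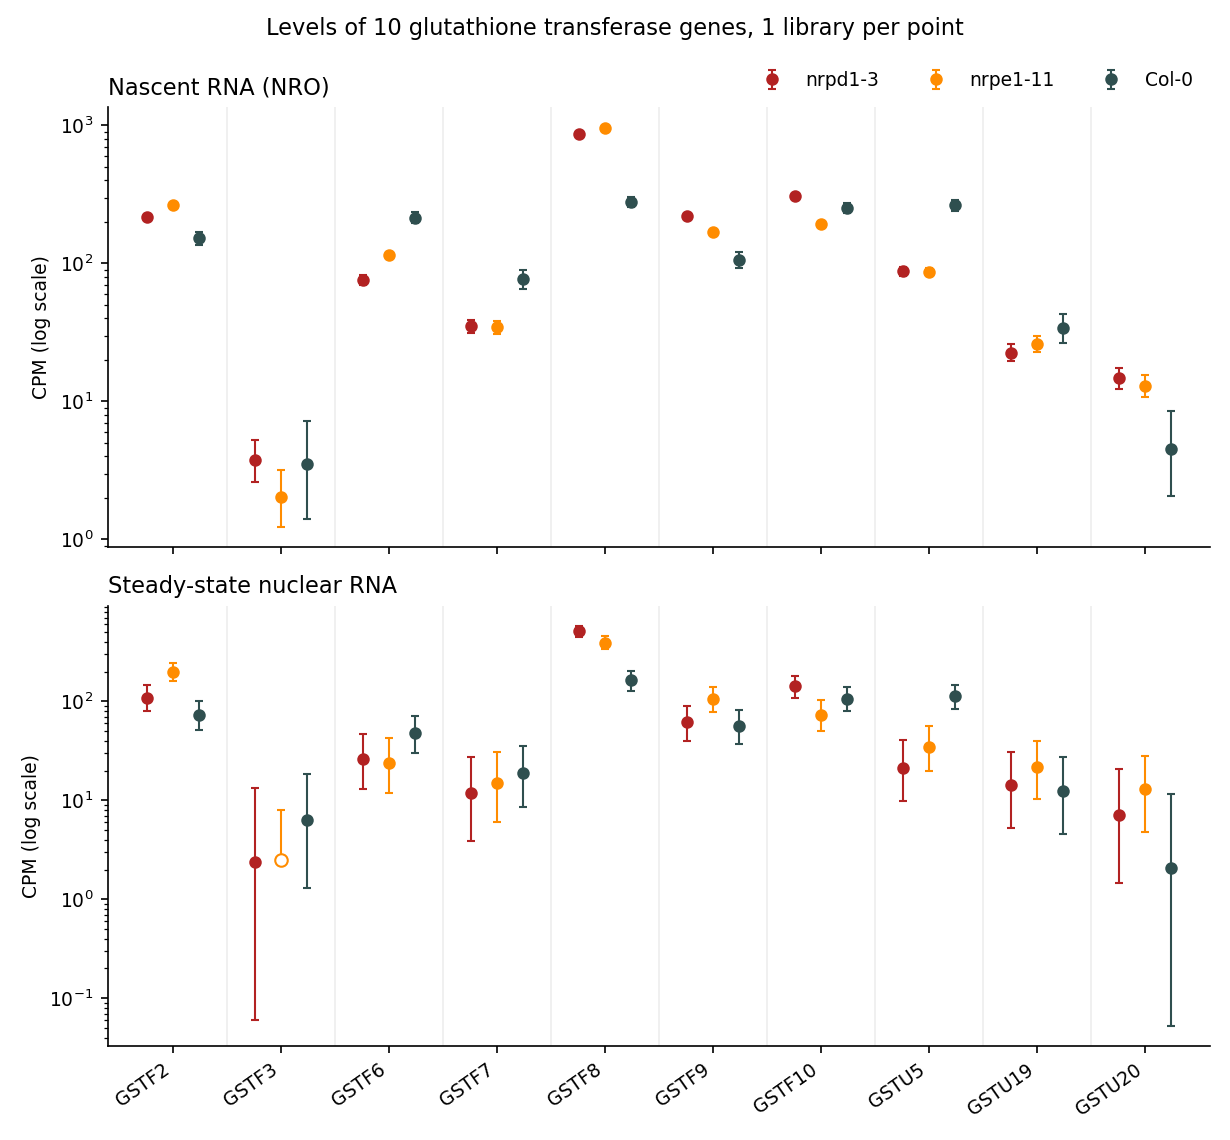
CPM of the 10 genes on a log axis, with nascent RNA above and steady-state nuclear RNA below. Each point is 1 library, bars are 95% counting intervals and the open circle marks a count of 0, drawn at an arbitrary height under its upper limit; GSTF8 stands at 862 and 957 CPM in the mutant NRO libraries and 277 CPM in Col-0, while GSTU5 stands at 87.6 and 86.8 CPM against 264 CPM.

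The other phi genes lay above, below or on both sides of Col-0. GSTF2, which binds auxin-like and indole ligands, had 1919, 2447 and 305 NRO counts in nrpd1-3, nrpe1-11 and Col-0, or 219, 264 and 152 CPM. Its RNA counts were 46, 93 and 35, or 109, 200.2 and 73.1 CPM. Every mutant library of GSTF2 was above Col-0, but only the RNA ratio of nrpe1-11, at 1.40 (0.88 to 2.06), was called; the NRO log2 ratios were 0.52 (0.35 to 0.70) and 0.79 (0.62 to 0.97).

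GSTF9 and GSTF10 are neighbouring genes whose order on the chromosome is adjacent in the reference annotation, and GSTF10 was first described as early dehydration-induced. GSTF9 had 1924, 1569 and 212 NRO counts and 26, 49 and 27 RNA counts in nrpd1-3, nrpe1-11 and Col-0. Its NRO log2 ratio was 1.05 (0.85 to 1.26) in nrpd1-3, just inside the threshold, and 0.67 (0.47 to 0.89) in nrpe1-11; neither RNA ratio was called. GSTF10 had 2711, 1800 and 507 NRO counts and 60, 34 and 51 RNA counts.

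GSTF10 was on opposite sides of Col-0 in the mutants, with NRO log2 ratios of 0.29 (0.15 to 0.43) in nrpd1-3 and -0.38 (-0.53 to -0.24) in nrpe1-11. Neither size passed the threshold, and the nrpe1-11 value became 0.35 with scaling by library totals. The count of GSTF9 divided by that of GSTF10, which needs no scaling, was 0.710 (0.669 to 0.753) in nrpd1-3 NRO, 0.872 (0.814 to 0.933) in nrpe1-11 and 0.418 (0.355 to 0.492) in Col-0. In RNA it was 0.433 (0.262 to 0.697), 1.44 (0.912 to 2.30) and 0.529 (0.319 to 0.860). The 3 NRO ratios had separate intervals, and in RNA nrpe1-11 stood above the other 2 libraries.

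GSTF6 and GSTF7 form another adjacent pair, and GSTF6 takes part in camalexin synthesis by adding glutathione to an indole intermediate. GSTF6 had 666, 1064 and 431 NRO counts in nrpd1-3, nrpe1-11 and Col-0, or 75.9, 115 and 215 CPM, and 11, 11 and 23 RNA counts. Its NRO log2 ratio was -1.50 (-1.68 to -1.33) in nrpd1-3, which was called lower, and -0.91 (-1.07 to -0.74) in nrpe1-11, just outside the threshold. GSTF7 had 308, 321 and 154 NRO counts, or 35.1, 34.6 and 76.9 CPM, and was called lower in both mutants, at -1.12 (-1.42 to -0.84) and -1.15 (-1.44 to -0.87).

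GSTF7 had 5, 7 and 9 RNA counts, too few for a ratio. GSTF3, a close relative of GSTF2, had 33, 19 and 7 NRO counts and 1, 0 and 3 RNA counts, and its NRO intervals included no difference from Col-0. Reads that align more than once were left out of the gene counts, so near-identical relatives such as GSTF2 with GSTF3 and GSTF6 with GSTF7 are uncertain.

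Among the tau genes, GSTU5 lay on the other side of Col-0 from GSTF8. It had 769, 806 and 528 NRO counts in nrpd1-3, nrpe1-11 and Col-0, or 87.6, 86.8 and 264 CPM. In RNA it had 9, 16 and 54 counts, or 21.3, 34.4 and 113 CPM. All 4 mutant values lay below Col-0, and the log2 ratios were -1.59 (-1.75 to -1.43) and -1.60 (-1.76 to -1.44) in NRO and -2.19 (-3.61 to -1.37) and -1.59 (-2.61 to -0.88) in RNA. Of the 6 listed genes measured in RNA, GSTU5 was the 1 called lower in both mutants and both assays, and GSTF8 the 1 called higher in all 4.

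GSTU19 and GSTU20 are adjacent. GSTU20, a partner of the jasmonate-conjugating enzyme JAR1, had 129, 120 and 9 NRO counts in nrpd1-3, nrpe1-11 and Col-0. It was called higher, at 1.65 (0.74 to 2.87) and 1.46 (0.55 to 2.69). With 9 counts in Col-0, GSTU20 was measured through the mutant libraries alone, the side where it was high. GSTU19, a herbicide-safener-inducible transferase, had 198, 242 and 68 NRO counts and log2 ratios of -0.58 (-0.99 to -0.17) and -0.38 (-0.78 to 0.03), neither called. With scaling by library totals its values were -0.06 and 0.35. The count of GSTU20 divided by that of GSTU19 was 0.652 (0.518 to 0.817), 0.496 (0.395 to 0.620) and 0.132 (0.0580 to 0.266). Both mutant ratios lay above the Col-0 ratio with separate intervals. Neither gene reached 20 counts in any RNA library.

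**Figure D2:**
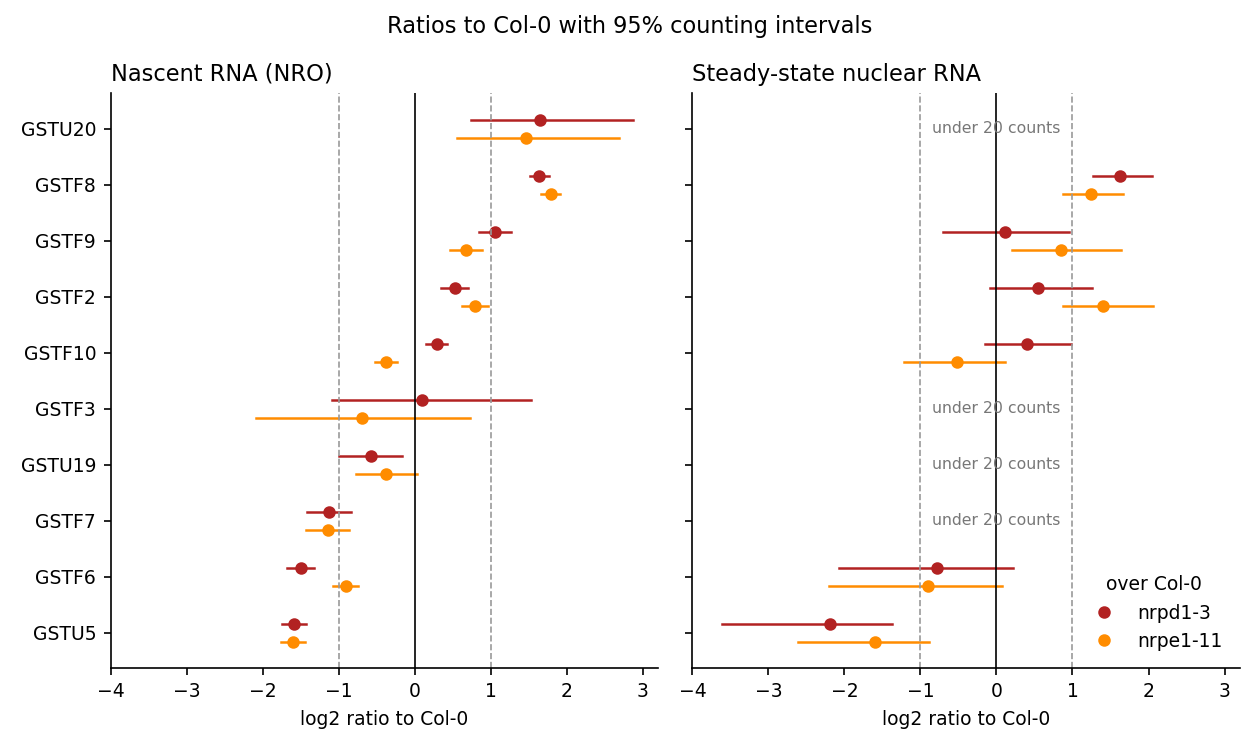
Log2 ratios of nrpd1-3 and nrpe1-11 to Col-0 for each gene, ordered by the nrpd1-3 NRO value, with 95% counting intervals and dashed lines at the size threshold of 1. GSTF8 lies above the upper line and GSTU5 below the lower line in all 4 comparisons, and 4 genes had under 20 counts in every RNA library.

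By the size rule, 3 of 10 genes were higher in nrpd1-3 NRO (GSTF8, GSTF9 and GSTU20) beside 9.31% of all 16083 genes measured, and 3 were lower (GSTF6, GSTF7 and GSTU5) beside 6.99%. In nrpe1-11 NRO, 2 were higher (GSTF8 and GSTU20) beside 12.1%, and 2 were lower (GSTF7 and GSTU5) beside 11.1%. In RNA, of 6 genes measured, 1 was higher in nrpd1-3 (GSTF8) beside 7.25% of 3297 genes, and 1 was lower (GSTU5) beside 11.9%. In nrpe1-11 RNA, 2 were higher (GSTF2 and GSTF8) beside 14%, and 1 was lower (GSTU5) beside 19%. Since the list was chosen by GSTF8 in these contrasts, and GSTU20 was measured through the mutant libraries alone, nothing is read from these shares.

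The listed genes showed no common direction. Their median NRO log2 ratio was 0.19 in nrpd1-3 and -0.38 in nrpe1-11, beside 0.03 and 0.04 over all genes. In RNA the medians were 0.26 in nrpd1-3 and 0.17 in nrpe1-11, beside -0.02 and 0.04. Both mutants were divided by the same Col-0 library of each assay.

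With scaling to library totals, the median log2 ratio of all genes was 0.53 in nrpd1-3 NRO and 0.74 in nrpe1-11 NRO, beside 0.03 and 0.04 with TMM. In RNA it was 0.72 in nrpd1-3 and 0.56 in nrpe1-11, beside -0.02 and 0.04 with TMM. For the 10 genes, higher and lower NRO calls became 4 and 1 in nrpd1-3, beside 3859 and 365 of all 16083 genes. In nrpe1-11 NRO they became 4 and 0, beside 5676 and 515. For the 6 genes measured in RNA, calls became 3 and 1 in each mutant. The RNA calls over all 3297 genes were 1104 and 99 in nrpd1-3 and 972 and 330 in nrpe1-11. Nothing is read from these counts either. GSTF8 stayed higher in all 4 comparisons under this scaling, at 2.16 to 2.52 in NRO and 1.79 to 2.40 in RNA. GSTU5 stayed below Col-0 in all 4 comparisons, but its nrpe1-11 NRO value of -0.87 no longer passed, and GSTF6 and GSTF7 lost their NRO calls, with values of -0.98 to -0.18 and -0.60 to -0.42.

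Shares within the list need no scaling between libraries. GSTF8 made up 46.6% (45.8 to 47.4) of the 16217 NRO counts of the 10 genes in nrpd1-3, 51.4% (50.7 to 52.2) of 17273 in nrpe1-11 and 19.99% (18.5 to 21.5) of 2776 in Col-0, with Clopper-Pearson intervals. In RNA its share was 56.4% (51.3 to 61.4) of 383 counts, 44.6% (39.7 to 49.6) of 408 and 27.2% (22.1 to 32.7) of 287. GSTU5 made up 4.74%, 4.67% and 19.0% of the NRO counts and 2.35%, 3.92% and 18.8% of the RNA counts in nrpd1-3, nrpe1-11 and Col-0. In Col-0 the shares of GSTF8 and GSTU5 had overlapping intervals in both NRO and RNA, and in the 4 mutant libraries they did not.

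GSTF8 and GSTU5, a pair chosen after their values were seen, had a count ratio of 9.83 (9.13 to 10.6) in nrpd1-3 NRO, 11.0 (10.3 to 11.9) in nrpe1-11 and 1.05 (0.931 to 1.19) in Col-0. In RNA it was 24.0 (12.4 to 53.2), 11.4 (6.82 to 20.3) and 1.44 (1.01 to 2.08). The summed level of the 10 genes was 1848, 1861 and 1387 CPM in NRO and 906, 878 and 599 CPM in RNA.

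**Figure D3:**
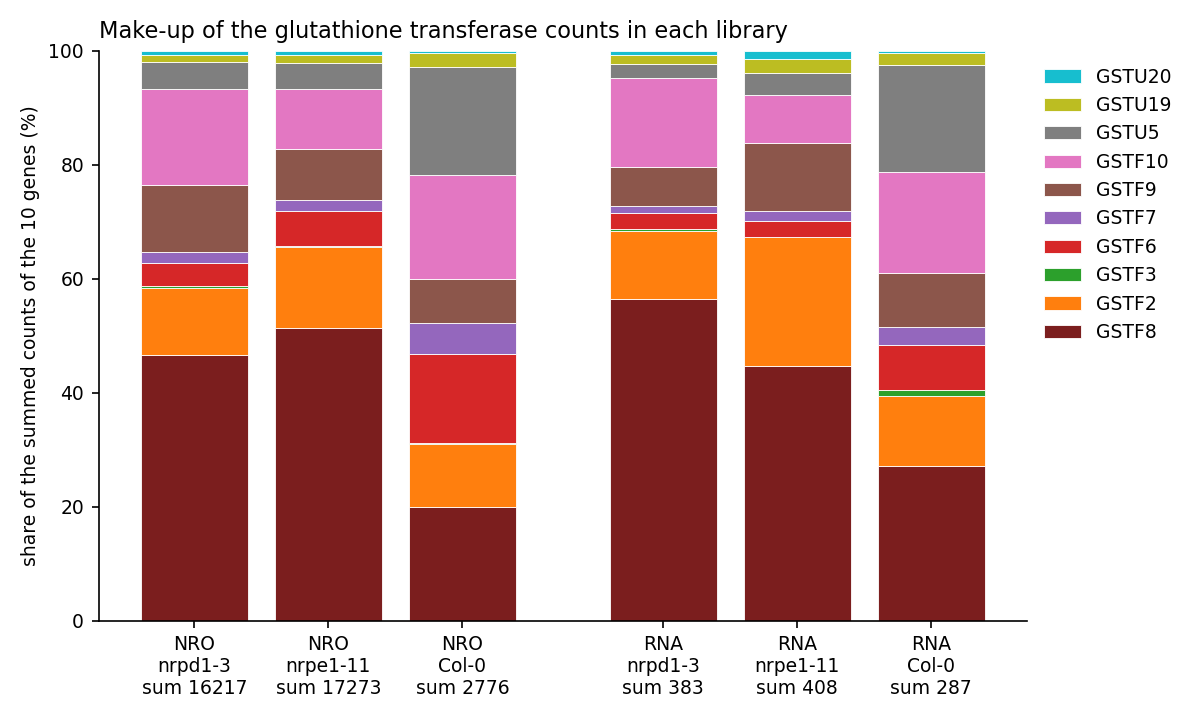
Stacked shares, in percent, of the summed counts of the 10 genes in each library, with the sum printed under each bar. GSTF8, at the base, takes 46.6% and 51.4% in the mutant NRO libraries and 19.99% in Col-0, and GSTU5 takes 4.74% and 4.67% against 19.0%.

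Nascent and steady-state levels were compared over the 3 genotypes with edgeR's quasi-likelihood test in an additive model of genotype and assay. This contrast was not used to choose the list, although it rests on the same libraries. Its spread is the variation of the assay difference between genotypes, not between plants. edgeR pools that spread over genes, so the p-values do not measure the variation of each gene over the 3 genotypes. Of 9 listed genes tested, 7 were higher in NRO than in RNA, beside 16.7% of all 14530 genes, and 0 were lower, beside 9.88%. GSTF3 had too few counts for the model. GSTF7, called higher, and GSTU19 and GSTU20, not called, met the count filter through the NRO libraries alone. The 7 of 9 and the median below include genes of this kind, so neither is read as support. The other called genes, GSTF2, GSTF6, GSTF8, GSTF9, GSTF10 and GSTU5, each reached 20 counts in an RNA library. The median log2 difference of the 9 genes was 1.06, beside 0.19 over all genes.

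GSTF6 had an NRO over RNA log2 ratio of 1.48 (0.65 to 2.51) in nrpd1-3, 2.23 (1.41 to 3.26) in nrpe1-11 and 2.02 (1.42 to 2.70) in Col-0. The edgeR estimate was 1.95 ± 0.288 (SE, adjusted p = 5.86e-10). GSTF7 had 1.48, 1.15 and 1.87 in the same order, with an edgeR estimate of 1.57 ± 0.331 (adjusted p = 3.01e-05). GSTF6, the camalexin-associated gene, was thus higher in nascent RNA in all 3 genotypes. GSTF7 had 5, 7 and 9 RNA counts, and its test is not read as support.

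GSTU5 was higher in NRO by 1.97 in nrpd1-3, 1.30 in nrpe1-11 and 1.09 in Col-0 (edgeR 1.37 ± 0.275, adjusted p = 9.42e-06). GSTF10 was higher by 1.07, 1.38 and 1.11 (edgeR 1.19 ± 0.266, adjusted p = 9.89e-05), and GSTF9 by 1.78, 0.66 and 0.77 (edgeR 1.06 ± 0.263, adjusted p = 0.000541). The GSTF9 value of nrpd1-3, with an interval of 1.23 to 2.41, lay above that of nrpe1-11 with no overlap and overlapped that of Col-0, which spanned 0.19 to 1.41.

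GSTF8 was higher in NRO by 0.71 (0.51 to 0.91) in nrpd1-3, 1.27 (1.06 to 1.49) in nrpe1-11 and 0.63 (0.29 to 0.99) in Col-0 (edgeR 0.88 ± 0.294, adjusted p = 0.0145). GSTF2 was higher by 0.96, 0.38 and 0.92 (edgeR 0.73 ± 0.26, adjusted p = 0.0223). The edgeR estimates for GSTU19, at 0.69 ± 0.347 (adjusted p = 0.131), and GSTU20, at 0.48 ± 0.520 (adjusted p = 0.545), did not pass.

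NRO was above RNA in 3 of 3 genotypes for each tested gene except GSTU20, with 2 of 3. The calls of GSTF8, GSTF2, GSTF9, GSTF10 and GSTU5 rest on particular libraries. GSTF8 did not pass in edgeR without any 1 of the 4 mutant libraries, with values of 0.50 to 0.96 (adjusted p = 0.225 to 0.498). GSTF2 did not pass in edgeR in the same 4 cases, with 0.47 to 0.89 (adjusted p = 0.0812 to 0.467). Without the nrpd1-3 NRO library GSTF9 had 0.56, GSTF10 1.08 and GSTU5 1.01 in edgeR (adjusted p = 0.319, 0.0561 and 0.0531). GSTF10 also did not pass in edgeR without the nrpe1-11 NRO library, at 0.92 (adjusted p = 0.0949), nor GSTF9 without the nrpd1-3 RNA library, at 0.71 (adjusted p = 0.252). Without the nrpd1-3 NRO library, 2 of 8 listed genes were called higher, beside 939 of all 8495 tested. Without the nrpe1-11 NRO library it was 4 of 8, beside 1044 of 8512. Without the nrpd1-3 RNA library it was 4 of 9, beside 1140 of 14529. Without the nrpe1-11 RNA library it was 5 of 9, beside 1298 of 14530. GSTF6 passed in each, as did GSTF7, whose test is not read as support. With genotype left out of the edgeR model, GSTF6 alone of the 9 passed, beside 720 higher of 14530 genes. Depth differed between the assays. With counts thinned to equal totals, an alternative chosen after seeing the data, 4 of 6 genes passed in edgeR (GSTF6, GSTU5, GSTF9 and GSTF10). Over all genes 833 of 2918 were then higher, and GSTF8 had 0.57 in edgeR (adjusted p = 0.0775).

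**Figure D4:**
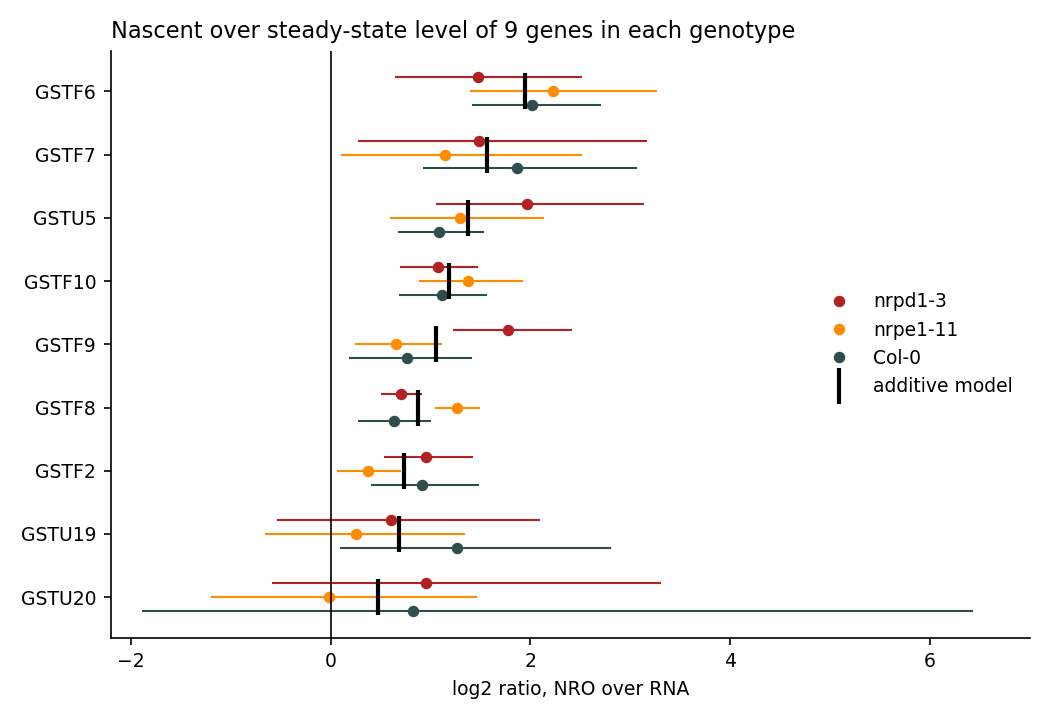
NRO over RNA log2 ratios of 9 genes in nrpd1-3, nrpe1-11 and Col-0, with 95% counting intervals and the additive edgeR estimate as a black bar. GSTF6 has the largest estimate, at 1.95, and the GSTU19 and GSTU20 intervals reach 0 in both mutants.

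The mutants were also set against each other. By the size rule, 0 of 10 genes differed between nrpe1-11 and nrpd1-3 in NRO, beside 8% of all genes, and 0 of 6 in RNA, beside 10.1%. In the additive edgeR model over both assays, 0 of 9 passed, beside 2.13% of all genes, with 1 at an unadjusted p under 0.05; DESeq2 also gave 0, with 1 unadjusted. That gene was GSTF10, with an edgeR log2 difference of -0.85 ± 0.318 (nrpe1-11 over nrpd1-3, adjusted p = 0.171). It was lower in nrpe1-11 than in nrpd1-3 in both assays, at -0.67 (-0.76 to -0.59) in NRO and -0.92 (-1.61 to -0.33) in RNA. Without the Col-0 NRO library GSTF10 passed in edgeR at -0.81 (adjusted p = 0.000679), and without the Col-0 RNA library at -0.78 (adjusted p = 0.00211). Calls over all genes rose in those fits too, to 1240 of 14505 and 1175 of 14529, against 310 of 14530 with every library. The spread in this mutant contrast is between assays, pooled over genes by edgeR, and not between plants.

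GSTF8 differed between the mutants by 0.15 (0.11 to 0.20) in NRO and by -0.38 (-0.68 to -0.09) in RNA, and the edgeR estimate over both was -0.16 ± 0.351 (adjusted p = 0.930).

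The genes whose pattern over the 6 libraries was most like that of GSTF8 were found by the root mean square difference of log2 CPM, centred within each assay, among 1220 genes with enough counts. In order they were AILP1 (AT5G19140), at 0.153, AT4G04410, annotated as a pseudogene, at 0.157, fibrillin 4 (FIB4, AT3G23400), a plastid lipid-associated protein, at 0.189, pectin methylesterase 1 (PME1, AT1G53840), a cell wall enzyme, at 0.198, and AT1G30820 at 0.203. AILP1 had 4428, 7044 and 401 NRO counts and 114, 117 and 45 RNA counts in nrpd1-3, nrpe1-11 and Col-0. Of the other listed genes, 3 had enough counts to be ranked, and the remaining 6 could not appear. GSTF2 ranked 146 at 0.525, GSTF10 ranked 494 and GSTU5 ranked 1146 at 1.59.

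The rest of the family was mostly weakly expressed. Of 6 other phi genes, 1 was measured in NRO, GSTF11 (AT3G03190), which acts in aliphatic glucosinolate synthesis. It had 62, 49 and 4 NRO counts in nrpd1-3, nrpe1-11 and Col-0, so it was measured through the mutant libraries alone. It was called in nrpd1-3, at 1.68. Of 25 other tau genes, 10 were measured in NRO. GSTU4 and GSTU17 were called lower in nrpd1-3 and none was called higher. In nrpe1-11, GSTU28 was called higher and GSTU4 lower. GSTU28 had 48, 89 and 8 NRO counts in nrpd1-3, nrpe1-11 and Col-0 and was measured through the mutant libraries alone. GSTU4 had 1, 15 and 21 and was measured through Col-0 alone. GSTU13, the most counted of the other tau genes, had 1166, 886 and 152 NRO counts and was not called.

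Of 12 genes in other classes, 10 were measured in NRO, with GSTT2 called higher and DHAR1 called lower in both mutants. GSTT2 had 105, 78 and 6 NRO counts in nrpd1-3, nrpe1-11 and Col-0, so it was measured through the mutant libraries alone. Its RNA counts were 5, 14 and 8, too few for a ratio. DHAR1 (AT1G19570), the cytosolic dehydroascorbate reductase that uses glutathione to regenerate ascorbate, had 730, 625 and 699 NRO counts and 14, 26 and 59 RNA counts in nrpd1-3, nrpe1-11 and Col-0. Its log2 ratios were -2.07 and -2.37 in NRO and -1.77 and -1.08 in RNA for nrpd1-3 and nrpe1-11, so it was called lower in all 4 comparisons, like GSTU5.

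Genes of glutathione synthesis, recycling and use gave 18 measured of 20 in NRO, with ABCC3 and GPX2 called higher in nrpd1-3, and ABCC3 and GPX1 called higher and GPX8 lower in nrpe1-11. ABCC3 (AT3G13080), a vacuolar transporter of glutathione conjugates, had 2277, 1854 and 122 NRO counts and 77, 44 and 34 RNA counts in nrpd1-3, nrpe1-11 and Col-0. Its log2 ratios were 2.09 and 1.71 in NRO and 1.31 and 0.40 in RNA, the last not called. GPX2 had 107, 81 and 10 NRO counts in nrpd1-3, nrpe1-11 and Col-0, so it was measured through the mutant libraries alone. GPX1 (AT2G25080), a plastid glutathione peroxidase-like enzyme, was called in nrpe1-11 in both assays, at 1.51 in NRO and 1.30 in RNA. The synthesis genes GSH1 and GSH2 were not called in any of the 4 comparisons; GSH1 had 791, 674 and 214 NRO counts.

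GGT1 (AT4G39640), a gamma-glutamyl transferase that degrades glutathione and the most counted of this list, had 4052, 2732 and 893 NRO counts and 111, 41 and 154 RNA counts. It was called lower in nrpe1-11 RNA, at -1.81. In RNA the list had 9 genes measured, of which ABCC3 was called higher in nrpd1-3, and GPX1 higher and GGT1 lower in nrpe1-11.

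Of 12 TGA factors and detoxification genes, 10 were measured in NRO, with 2 higher and 2 lower in each mutant. Over all genes, 9.31% were higher and 6.99% lower in nrpd1-3 NRO, and 12.1% and 11.1% in nrpe1-11 NRO. The lower genes were GGP1 and PAD3 in nrpd1-3 and GGP1 and OPR2 in nrpe1-11. TGA2 and TGA6, bZIP factors that bind the promoter elements of stress-induced transferase genes, were the higher pair in both mutants. TGA2 had 79, 82 and 8 NRO counts and TGA6 93, 101 and 7, so both were measured through the mutant libraries alone. In RNA, TGA2 had 5, 9 and 3 counts and TGA6 3, 4 and 5, too few for a ratio to Col-0. The related TGA5 had 133, 103 and 19 NRO counts and was not called. GGP1 (AT4G30530), the gamma-glutamyl peptidase that trims glutathione conjugates in camalexin and glucosinolate synthesis, had 2387, 1722 and 1544 NRO counts and 35, 26 and 107 RNA counts. It was called lower in all 4 comparisons, at -1.50 and -2.05 in NRO and -1.38 and -1.92 in RNA for nrpd1-3 and nrpe1-11. OPR1, an oxophytodienoate reductase relative and the most counted of this list, had 4338, 3765 and 1268 NRO counts and was not called.

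With scaling by library totals, ABCC3, GSTT2, TGA2 and TGA6 kept their NRO calls in both mutants and DHAR1 its lower NRO calls. GGP1 stayed below Col-0 in all 4 comparisons but passed in nrpe1-11 alone, at -1.32 in NRO and -1.38 in RNA, and DHAR1 in nrpe1-11 RNA, at -0.55, did not pass. GSTU13 then passed in both mutants and both assays, at 1.06 to 1.33. The 18 measured genes of the glutathione list became 6 higher and 0 lower in nrpd1-3 NRO and 8 higher and 0 lower in nrpe1-11 NRO. Those called higher in both mutants were ABCC3, GPX1, GPX2, GPX3, GPX4 and GR1, and GPX6 and OXP1 joined them in nrpe1-11. GPX2, GPX3, GPX4 and GR1 were measured through the mutant libraries alone. The 10 other tau genes became 1 higher and 1 lower in nrpd1-3 NRO and 4 higher and 1 lower in nrpe1-11 NRO. Over all 16083 genes, this scaling gave 3859 higher and 365 lower in nrpd1-3 NRO and 5676 and 515 in nrpe1-11 NRO. Nothing is read from these list counts. OPR1 turned to 0.17 and 0.09 in NRO, and GSH1 and GSH2 in both mutants and GGT1 in nrpe1-11 turned above Col-0 in NRO without passing. GSTU17, GPX8, PAD3 and OPR2 lost their calls.

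For NRO over RNA in the edgeR model, 1 of 8 other tau genes tested was higher and 1 lower, 2 of 10 genes of other classes were higher and 2 lower, and 3 of 17 glutathione genes were higher and 4 lower. Of the TGA and detoxification genes, 4 of 10 were higher and 0 lower. The 1 other phi gene tested, GSTF11, did not pass. Of these lists, 2 other tau genes, 2 of other classes, 9 glutathione genes and 2 TGA and detoxification genes reached 20 counts in RNA. The rest entered through the NRO libraries alone. Median log2 differences were 1.03 for the other tau genes, 0.01 for other classes, -0.07 for the glutathione genes and 0.91 for the TGA and detoxification genes, beside 0.19 over all genes.

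**Figure D5:**
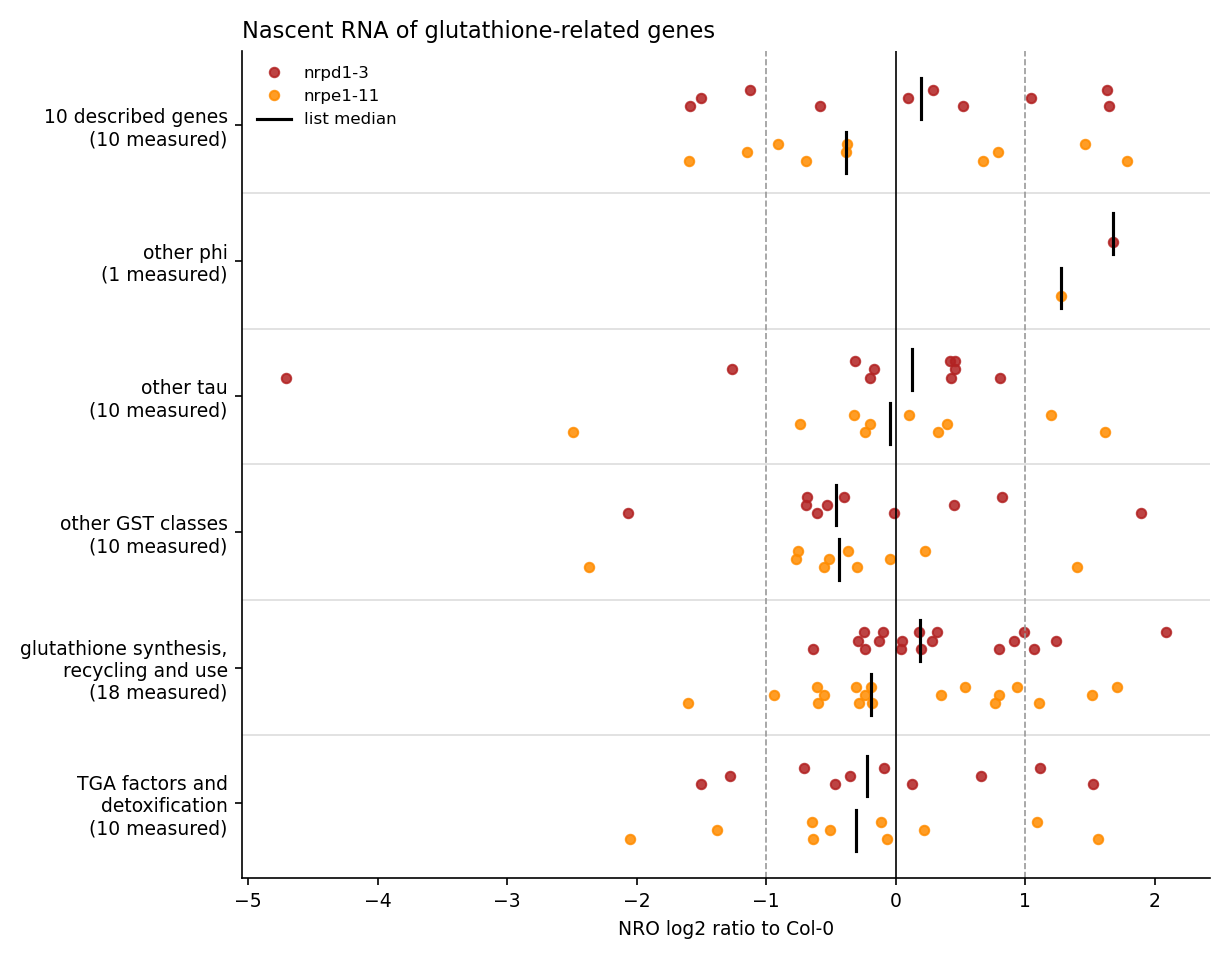
NRO log2 ratios to Col-0 of the 10 described genes and of the measured genes of 5 related lists, nrpd1-3 above nrpe1-11 in each row, with list medians as black bars and dashed lines at the threshold of 1. The described genes spread from -1.59 to 1.65 in nrpd1-3 and from -1.60 to 1.79 in nrpe1-11, and each list of 10 or more genes lies on both sides of 0.

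Cell type markers were summed in the same libraries, without intervals, and members of a list could go opposite ways. The 6 leaf markers summed to 2296 CPM in nrpd1-3, 3071 in nrpe1-11 and 3609 in Col-0 in NRO, and to 3086, 5665 and 4605 CPM in RNA. RBCS1A, RBCS3B and RCA were called lower in nrpd1-3 NRO, and RBCS3B alone in nrpe1-11 NRO. LHCB1.1, LHCA1 and DRT112 were not called, and no leaf marker was called in RNA. Root markers, nearly all PYK10, summed to 46.0, 29.3 and 18.5 CPM in NRO and 75.7, 131 and 25.0 CPM in RNA. Epidermis and guard cell markers summed to 39.6, 44.1 and 33.5 CPM in NRO and 54.4, 68.9 and 56.4 CPM in RNA. In nrpe1-11 NRO, ATML1 and KAT1 were called higher, at 1.61 and 2.57, and PDF1 and FAMA lower, at -1.35 and -1.37. Vascular markers summed to 47.6, 43.9 and 30.0 CPM in NRO and 33.1, 30.1 and 18.8 CPM in RNA. IRX5 had 151, 133 and 5 NRO counts, while SUC2 was not called. Dividing cell markers summed to 23.8, 21.9 and 19.5 CPM in NRO, from 39 counts in Col-0, and 11.8, 6.46 and 8.35 CPM in RNA. Of these, AT1G76540 had 48, 61 and 0 NRO counts in nrpd1-3, nrpe1-11 and Col-0 and was called higher in both mutants. The other measured dividing cell markers were not called. Reads in no gene made up 18.6% of uniquely aligned reads in both mutant NRO libraries and 25.8% in Col-0 NRO. Entries that HTSeq set aside as aligned more than once were 48.4% in nrpd1-3 NRO, 47.8% in nrpe1-11 NRO and 79.8% in Col-0 NRO. In RNA they were 90.5%, 90.3% and 92.7%. The base was these entries plus the uniquely aligned reads, and whether 1 read could be entered more than once is not given. The TMM factors were 1.07, 1.24 and 0.745 in NRO and 1.09, 0.942 and 0.675 in RNA, so Col-0, by which each mutant ratio was divided, had the lowest factor of each assay. The part of these differences in the glutathione transferase values was not tested.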

How the data were processed

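Read counts per gene in 6 libraries were deposited by the authors as whole numbers, made with HTSeq after Trimmomatic 0.33 and TopHat2 2.1.0 on TAIR10, per the submitters' processing notes. Strand setting and annotation release are not given in the sources used here; antisense reads may not be told apart. Multiply aligned reads were in no gene count, and library sizes left out the 5 summary lines; the 279 organelle genes were at 0. The members and lists were chosen with earlier results of these data known.

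Here, libraries were scaled by TMM (edgeR 4.0.16 under R 4.3.3), with a prior count of 2 and genes with 20 counts in 1 library of the assay. Ratios have exact conditional binomial 95% intervals; shares have Clopper-Pearson intervals. Models covered 14530 genes that had 20 counts in 2 libraries, by edgeR's quasi-likelihood test, and were tested on simulated counts. Benjamini-Hochberg adjustment was at 0.05. Each gene had 2 residual degrees of freedom, and edgeR pooled the spread over genes. Named genes were the members, the most counted of each list and the 5 genes most like GSTF8. Genes of other lists called in one direction in NRO and RNA of a mutant were also named. GSTF11, GSTT2, TGA2, TGA5, TGA6, GSTU4, GSTU17, GSTU28, GPX2, GPX3, GPX4, GPX6 and GPX8 were named after their values were seen. So were GR1, OXP1, PAD3, OPR2, GSH1, GSH2, ATML1, KAT1, PDF1, FAMA, IRX5, SUC2, AT1G76540, RBCS1A, RBCS3B, RCA, LHCB1.1, LHCA1 and DRT112. Names and gene order came from the RefSeq table of TAIR10.1, which matched 10 of 10 members. Alternatives were other scaling, filters, prior counts, thresholds, DESeq2 1.42.0, no genotype or assay term, thinning and leaving out each library. The 3 chromatin samples were not analysed here.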

Additional observations from a re-analysis of the deposited data

Results flagged for a closer look

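These 3 results stood out because a contrast pointed in opposite directions in a pair of assays or mutants, with counting intervals on either side of equality; none of these differences was tested, since each rests on 1 library per group. GSTF8 was higher in nrpe1-11 than in nrpd1-3 in NRO, at a log2 ratio of 0.15, and lower in RNA, at -0.38, so the NRO ratio exceeded the RNA ratio by 0.53 (0.24 to 0.82). With thinned counts the GSTF8 RNA interval included equality (-0.61 to 0.01). GSTF9 showed the opposite arrangement, with -0.38 in NRO and 0.74 in RNA, a difference of -1.11 (-1.81 to -0.42). Its RNA interval included equality with library totals (-0.17 to 1.29), without the count filter (-0.03 to 1.43) and with thinned counts (-0.05 to 1.51). GSTF10 was above Col-0 in nrpd1-3 NRO and below it in nrpe1-11 NRO, and the nrpe1-11 log2 ratio minus that of nrpd1-3 was -0.67; with scaling by library totals both mutants stood above Col-0.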

How the results depend on the processing

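No listed value turned direction where it had been called. With library totals, GSTF8 log2 ratios to Col-0 were 2.16 and 2.52 in NRO and 2.40 and 1.79 in RNA for nrpd1-3 and nrpe1-11. This scaling gave 4 of 6 listed genes called in nrpd1-3 RNA, beside 1104 higher and 99 lower of all 3297. Between the mutants in RNA it gave 1 of 6, beside 91 higher and 317 lower. A minimum ratio of 1.5 in place of 2 gave 7 of 10 called in nrpe1-11 NRO, beside 2838 higher and 2973 lower of 16083. Between the mutants it gave 3 of 10 in NRO, beside 1654 higher and 2011 lower. In RNA it gave 3 of 6 between the mutants, beside 310 higher and 335 lower of 3297. For NRO over RNA, dropping genotype from the edgeR model, which pairs the assays within a genotype, left 1 of 9 listed genes (GSTF6). Thinning left 4 of 6 tested, and leaving out a library gave 2 of 8 to 7 of 9. DESeq2 gave 6 of 9, without GSTF2. Over all 14530 genes tested that contrast had 3865 calls, against 2068 in DESeq2 and 1056 without genotype. Thinning gave 1672 calls among 2918 genes tested. Leaving out a library gave 1745 to 3982 calls, with 8495 to 14530 genes tested. Between nrpe1-11 and nrpd1-3, all 14530 genes gave 310 calls, against 17 in DESeq2, 87 with library totals and 0 without assay. Thinning gave 1 call among 2918 genes tested. Leaving out a Col-0 library gave 1 listed gene (GSTF10) and 1240 of 14505 or 1175 of 14529 genes. Leaving out a mutant library left 1 library of that genotype, so its calls are not given. GSTF8 as a share of the 7 phi genes was 50.0%, 55.2% and 25.6% of NRO counts in nrpd1-3, nrpe1-11 and Col-0, and 34.5% of RNA counts in Col-0. Without GSTF2, GSTF3, GSTF6 and GSTF7 it was 56.9%, 66.2% and 29.5% in NRO and 67.5%, 61.3% and 35.9% in RNA. These shares differ by construction, having fewer genes in the sum; the cause of the other changes was not tested. RNA depth left 4 of the 10 genes unmeasured in that assay.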

Other observations

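The neighbours of the listed genes were of several kinds. AT2G47710, the gene before GSTF8 in the reference order, had 105, 95 and 31 NRO counts in nrpd1-3, nrpe1-11 and Col-0, with log2 ratios of -0.36 and -0.58, and AT2G47720 after it had 0 in every library. TOC159 (AT4G02510), which encodes a receptor for protein import into chloroplasts and lies next to GSTF2, had 4698, 7744 and 372 NRO counts and was called higher in both mutants, at 1.53 and 2.16, while GSTF2 was not called in NRO. SWAP70, on the other side of GSTF10, had 154, 156 and 50 NRO counts and was not called.

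GSTU5 lies in a run of tau genes, most of them with few reads. GSTU4 had 1, 15 and 21 NRO counts in nrpd1-3, nrpe1-11 and Col-0 and was called lower in both mutants, with counts too low in nrpd1-3 to give a firm size. GSTU6 had 6, 7 and 9 NRO counts and GSTU7 had 105, 82 and 30; GSTU7 had log2 ratios of -0.32 and -0.74 that did not pass. GSTF5, the neighbour of GSTF6, and GSTU21, the neighbour of GSTU20, had 0 counts in every library.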
